A study of Rattus norvegicus with 12 samples.

Results

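The genes described here are 6 genes of calcium uptake and vitamin D action, S100g, Trpv6, Vdr, Cyp24a1, Atp2b1 and Slc8a1, found by the gene names that the array design gives to its gene spots. All 6 had probes on the array, 10 probes in all on 19 spots. The set was chosen by the S100g intensity in these same arrays, whose mean was higher on the high-protein diet, so that diet difference is given as a description with no test, and the diet differences of the other members are treated in the same way. Of the 6 genes, 4 passed the filter on dim probes and stand among 9481 tested genes.

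Colonic epithelium of male Wistar rats weighing 180 to 200 g was profiled after 6 weeks on a normal-protein or a high-protein diet, with 6 replicate arrays for each diet. The strain, sex and tissue were the same in both groups. Each array was a Cy3 single-colour Agilent whole rat genome array, and 3 slides carried 4 arrays each, 2 of each diet. The labels do not say which replicates came from separate animals, so p-values measure the spread between these samples. Replicates are written NP1 to NP6 for normal protein and HP1 to HP6 for high protein. Values are normalized log2 intensities, where a step of 1 is a doubling of the offset signal, and a difference is the high-protein mean less the normal-protein mean.

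Calcium is absorbed across the gut epithelium in steps. The channel TRPV6 lets it in at the luminal membrane, the small EF-hand protein encoded by S100g (the intestinal calbindin) binds and ferries it through the cell, and the calcium pump encoded by Atp2b1 and the sodium-calcium exchanger encoded by Slc8a1 move it out on the blood side. Calcitriol, the active form of vitamin D, drives this route through its nuclear receptor VDR, which works as a pair with a retinoid X receptor. Cyp24a1 encodes the enzyme that breaks calcitriol down and is itself a classical target of VDR. In rodents the route is best known from the duodenum and is also present in the large bowel.

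Between 42.7% and 55.9% of the gene spots of an array were flagged good by the scanner software, with NP3 the dimmest array. No array held the same values as another. Of 10 epithelial marker genes, 10 were tested and 9 were flagged good on all 12 arrays. The samples also carried the other cells of the colon wall: all 12 smooth muscle markers and all 6 fibroblast markers were tested, while 3 of 7 immune markers were not. In such bulk samples fewer cells of a type and less RNA per cell cannot be told apart. With limma, 0 of 9481 genes (0% higher and 0% lower) passed an adjusted p of 0.05 for diet, and no adjusted p lay below 0.68. Without adjustment, 636 genes had a limma p below 0.05, with 3.72% of all genes higher and 2.98% lower on high protein.

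S100g differed most between the diets among the members. On normal protein it ran from 9.53 through a median of 11.78 to 14.39, and on high protein from 11.40 through a median of 13.53 to 14.48. The diets overlapped: NP6 lay above 5 of the 6 high-protein arrays, and HP1 lay below NP2, NP4, NP5 and NP6. The means were 11.68 ± 1.71 (SD, n = 6) on normal protein and 13.30 ± 1.04 (SD, n = 6) on high protein, a difference of 1.62 ± 0.72 (SE) or 3.08-fold. Before normalization the S100g spot stood 649 to 20096 intensity units over its background on normal protein and 2939 to 20301 on high protein, with 0% of its pixels saturated. Among all 9481 tested genes, 8 had a larger absolute difference, a rank that follows from the choice of the set by this value.

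The size of the S100g difference changed with the slide while its direction did not. On slide 1 it was 2.70, on slide 2 it was 1.03 and on slide 3 it was 1.13, each from 2 arrays of each diet. The 3 arrays with the lowest S100g, NP1, NP3 and HP1, all lay on slide 1, at 9.53, 10.26 and 11.40, while the fourth array of that slide, HP2, was at 13.78. With each array left out in turn the difference stayed between 1.19 (without NP1) and 2.16 (without NP6). In the series value table, read with its row names moved by 1 row, the same probe had a difference of 1.67, and its 12 values correlated with the normalized scanner values at r = 0.9999.

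The other 3 members with a measured level had mean differences between -0.04 and 0.14. Trpv6, the entry channel, ran from 7.33 through a median of 8.45 to 9.18 on normal protein and from 7.48 through a median of 8.19 to 9.67 on high protein. The means were 8.29 ± 0.75 (SD, n = 6) and 8.25 ± 0.76 (SD, n = 6), and the difference was -0.04 ± 0.39 (SE), with a 95% interval from -0.88 to 0.80. Its range was nearly the same in both diets, and HP4 alone stood above 9.2. Without HP4 the Trpv6 difference was -0.33, and within slides 1, 2 and 3 it was 0.43, 0.44 and -1.0, so its sign depended on the arrays compared.

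Atp2b1, the pump that moves calcium out, was measured by a pair of probes that were both flagged good on all 12 arrays. The brighter probe ran from 10.20 through a median of 10.59 to 10.95 on normal protein and from 10.16 through a median of 10.51 to 11.46 on high protein. Its difference was 0.06 ± 0.19 (SE), with a 95% interval from -0.36 to 0.48, while that of the dimmer probe was -0.16, so the probes disagreed in sign and the ranges of the diets overlapped on both. HP4 was again the highest array, and without it the Atp2b1 difference turned to -0.10. Slc8a1, the exchanger, had 3 probes, of which 1 was spotted 10 times, and for none of them were at least 0.5 of the spots flagged good on any array. Its probes ran from 5.95 to 6.51, a level not well above background, and no diet difference is reported.

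Vdr, the receptor, ran from 6.54 through a median of 7.59 to 8.30 on normal protein and from 7.20 through a median of 7.70 to 8.11 on high protein. The means were 7.49 ± 0.57 (SD, n = 6) and 7.63 ± 0.34 (SD, n = 6), a difference of 0.14 ± 0.25 (SE) with a 95% interval from -0.39 to 0.67, which was -0.05 without NP6. It was flagged good on 10 of 12 arrays, and the 2 exceptions, NP6 and HP4, were the arrays with the highest S100g. Both probes of Cyp24a1, the calcitriol-degrading target of VDR, were flagged good on 0 of 12 arrays. They ran from 5.66 to 6.14, so Cyp24a1 was not well above background in either diet and no fold is given.

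**Figure D1:**
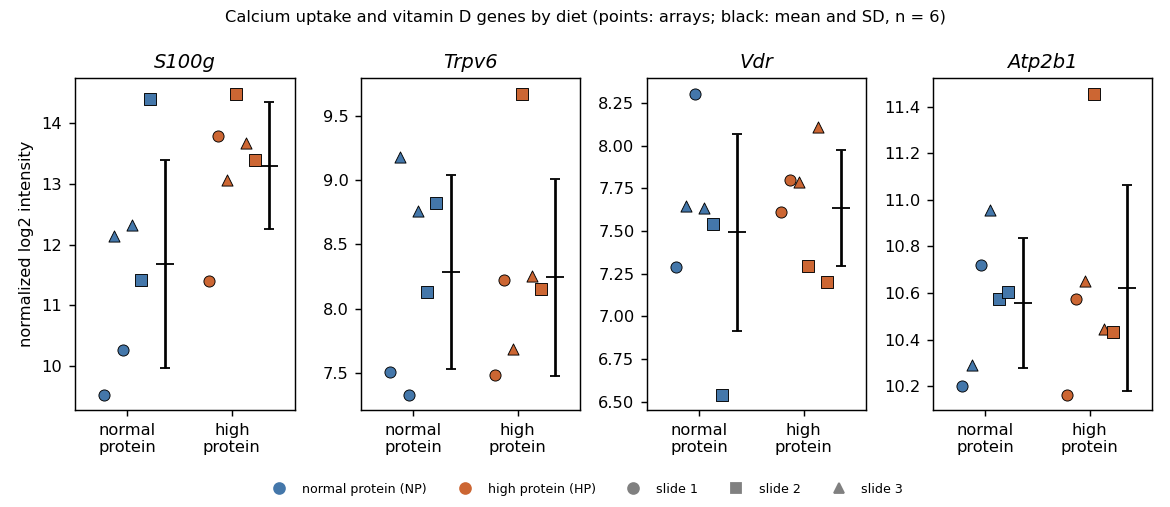
Normalized log2 intensity of the 4 members that passed the filter, by diet, with a point for each array, the point's shape giving its slide, and the mean and SD in black (n = 6 for each diet). S100g runs from 9.53 to 14.39 on normal protein and from 11.40 to 14.48 on high protein. The diets overlap for all 4 members, and the means of Trpv6, Vdr and Atp2b1 differ by -0.04, 0.14 and 0.06.

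A stretch before the start of the Trpv6 and Vdr genes is shown because these stretches held a match to the letters that VDR is known to bind. The sequences are from RefSeq (GRCr8), 5′ to 3′ on the strand of the gene, and cover 250 bases that end at the base before the annotated start. Trpv6 lies on the minus strand and its stretch is chr4:71489668-71489917, and Vdr lies on the minus strand with chr7:130916758-130917007. Capitals mark a match on either strand to the hexamer AGGTCA, which nuclear receptors of this kind bind in pairs, or to a variant of it. The first variant searched was AGTTCA, the next was GGGTCA and the last was GGTTCA, and no match overlapped another.
Trpv6: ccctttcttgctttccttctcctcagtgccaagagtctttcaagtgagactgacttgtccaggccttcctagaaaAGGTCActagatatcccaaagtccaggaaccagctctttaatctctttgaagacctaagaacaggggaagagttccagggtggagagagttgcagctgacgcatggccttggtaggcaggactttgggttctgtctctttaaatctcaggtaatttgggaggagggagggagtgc
Vdr: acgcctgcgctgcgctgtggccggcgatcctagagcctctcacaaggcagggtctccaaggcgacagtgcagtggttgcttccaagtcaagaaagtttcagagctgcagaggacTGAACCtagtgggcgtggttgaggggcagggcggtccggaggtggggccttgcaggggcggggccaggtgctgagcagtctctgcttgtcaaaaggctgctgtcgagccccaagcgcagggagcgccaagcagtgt
Trpv6 had 1 match, to AGGTCA on the gene's strand, and Vdr had 1, to GGTTCA on the opposite strand. The stretches of Atp2b1 and Slc8a1, read in the same way, had 0 matches each. Of 33469 promoters of the same length in the table, 39.1% held at least 1 such match, so the matches are a description of these letters and no more. S100g and Cyp24a1 are named only.

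The arrays differed in 2 genes whose levels follow position along the colon, Hoxb13, a gene of the distal colon, and Hoxb6, a gene of more proximal gut. Their log2 difference on each array, Hoxb13 minus Hoxb6, is used here as a Hox score. Scores lay between 4.72 and 5.48 in 6 arrays (NP1, NP2, HP1, HP2, HP5 and HP6), between -4.78 and -3.34 in 3 arrays (NP6, HP3 and HP4), and at -1.07, 1.54 and 2.22 in NP4, NP3 and NP5. Hoxb13 was not flagged good on NP4, NP6 and HP3, and Hoxb6 was not on NP2 and NP3, so the score of these arrays rests in part on a level near background.

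S100g was high in the 3 arrays with the lowest scores and widely spread where the score was high. In the lowest 3 it was at 14.39 in NP6, 13.06 in HP3 and 14.48 in HP4. Among the 6 arrays with scores over 4.7 the normal-protein arrays had S100g values of 9.53 and 12.14, and the high-protein arrays had 11.40, 13.78, 13.67 and 13.39. These 6 arrays, nearly equal in Hox score, thus covered most of the S100g range of the series. In between, NP4, NP3 and NP5 were at 12.33, 10.26 and 11.42.

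Over the 12 arrays, S100g and the Hox score had a Pearson r of -0.39 (permutation p = 0.21) and a Spearman rho of -0.18 (permutation p = 0.57). Without NP6 and HP3, the 2 arrays farthest from the median score, r was -0.19. Within normal protein r was -0.74 (exact permutation p = 0.093) and within high protein it was -0.30 (exact permutation p = 0.63), each over 6 arrays. Adjusted over the 4 members tested, the pooled p was 0.32. With Hoxb6 alone in place of the score, r was 0.59 (permutation p = 0.042, not adjusted). This value rests on the same 3 arrays, in which Hoxb6 was between 10.82 and 10.95, while the other 9 arrays were at 7.49 or lower.

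With the Hox score in the fit the S100g difference by diet was 1.74 ± 0.64 (SE), where it had been 1.62 ± 0.72 (SE) without it. That fit takes the same diet difference at every score, and under it the S100g difference was about as large as without the score. A term that let the diet difference change with the score was 0.27 ± 0.15 (SE) per unit of score (limma adjusted p = 0.71). Where the score was lowest, NP6 at 14.39 lay between HP3 at 13.06 and HP4 at 14.48. With Hoxb13 alone in place of the score the S100g difference by diet was 1.97, and with Hoxb6 alone it was 1.25. Its size thus changed with the Hox gene used. With the Hox score in the fit and each array left out in turn, the difference stayed between 1.37 (without NP1) and 2.20 (without HP3). In that fit 0 of 9479 genes passed for diet after limma adjustment, and at an unadjusted p below 0.05 there were 4.81% higher and 3.89% lower. The slope of S100g on the score, with diet in the fit, was -0.17 ± 0.08 (SE) per unit of score (limma adjusted p = 0.26). Across all genes the same fit called 346 genes (3.65%) with a positive and 269 genes (2.84%) with a negative slope among 9479 tested besides Hoxb13 and Hoxb6. That total of 615 was 329 without HP3 and 356 with slide as a block.

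Of the members, 0 of 4 passed for the slope on the Hox score. The nearest was Atp2b1, with a slope of -0.06 ± 0.02 (SE) (limma adjusted p = 0.096). Its Pearson r with the score was -0.67 (permutation p = 0.014, adjusted over the 4 members 0.055), Spearman rho was -0.70, and without NP6 and HP3 r was -0.93. Within normal protein the Atp2b1 correlation was -0.66 and within high protein -0.70 (exact permutation p = 0.14 and 0.099). Trpv6 and Vdr had slopes of -0.05 ± 0.05 (SE) and 0.04 ± 0.03 (SE) with limma adjusted p-values of 0.57 and 0.53. The Vdr slope was close to 0, at -0.00058, without NP6.

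**Figure D2:**
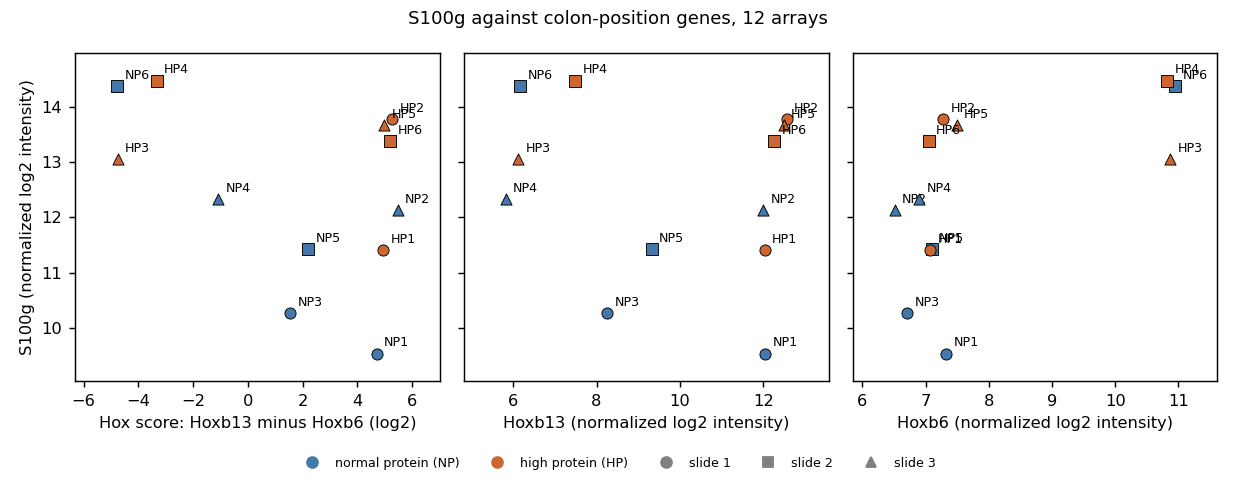
S100g (normalized log2 intensity) against the Hox score, against Hoxb13 and against Hoxb6, with a labelled point for each of the 12 arrays, coloured by diet and shaped by slide. Arrays with a score over 4.7 run from 9.53 (NP1) to 13.78 (HP2) in S100g, and the 3 arrays with Hoxb6 above 10 lie between 13.06 and 14.48.

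S100g and Trpv6, the carrier and the channel of the same route, tended to be high and low in the same arrays. NP1, NP3 and HP1 had the 3 lowest values of S100g and also of Trpv6, and HP4 was the highest in both. Pearson r was 0.65 over the 12 arrays (permutation p = 0.022, adjusted over 6 pairs of members 0.13) and Spearman rho was 0.73 (permutation p = 0.0088, adjusted 0.053), so the pair did not pass after adjustment. Within normal protein r was 0.81 and within high protein 0.81 (exact permutation p = 0.051 and 0.076). Without NP1 and NP3, r was 0.45. With the diet means removed r was 0.79 and with the slide means removed it was 0.43. On slides 1, 2 and 3 alone, over 4 arrays each, it was 0.89, 0.74 and -0.74. This relation was looked at after the values were seen.

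The other pairs were looser. Trpv6 and Atp2b1 had an r of 0.58 (permutation p = 0.047, adjusted 0.14) and a Spearman rho of 0.31 (permutation p = 0.33), and within high protein, where HP4 was highest in both, r was 0.91. S100g and Atp2b1 had an r of 0.46, S100g and Vdr of -0.33, Trpv6 and Vdr of -0.40 and Vdr and Atp2b1 of -0.04 (permutation p = 0.13, 0.30, 0.20 and 0.90).

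Among 8792 other genes with a symbol, the 6 whose values over the 12 arrays were most like those of S100g by Pearson r were Clic5, Pus7, Stradb, Nbn, Shtn1 and Echs1. Clic5, which encodes a chloride intracellular channel protein found with the cortical actin of microvilli, had an r of 0.92 (0.99 within normal and 0.63 within high protein). It ran from 9.42 in NP1 to 10.55 in HP2, and its diet difference was 0.31. Pus7, a pseudouridine synthase, had an r of 0.87, and Stradb, Nbn (a DNA break repair protein), Shtn1 and Echs1 (a mitochondrial enzyme of fatty acid oxidation) had r between 0.81 and 0.82. The 3 genes most opposed to S100g were Cdh3, Kazald1 and Tox4. Cdh3, P-cadherin, had an r of -0.93 (-0.96 within normal and -0.83 within high protein), running from 6.96 in NP6 to 8.02 in NP3. Kazald1 and Tox4 were both at r = -0.88. In this order Trpv6 ranked 76 and Atp2b1 ranked 568 from the top, while Vdr ranked 1514 from the bottom. These likenesses were the extremes of many and are given with no test.

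Markers of other cells also moved with S100g. The mean of 6 fibroblast markers lay between 10.51 and 11.31 on normal protein and between 10.51 and 11.02 on high protein, with a median of 10.91 and 10.76. It was highest in NP1, where S100g was lowest, and low in NP6, HP2 and HP4, where S100g was high. Over the 12 arrays its r with S100g was -0.85 (permutation p = 0.00038, adjusted over 8 marker lists 0.0030) and Spearman rho was -0.84 (permutation p = 0.0011). Within normal and high protein r was -0.87 and -0.80 (exact permutation p = 0.036 and 0.031), without NP1 and HP2 it was -0.77, and with slide means removed it was -0.88. The mean of 4 immune cell markers ran from 7.40 to 7.87 on normal protein and from 7.09 to 7.62 on high protein, with an r of -0.69 with S100g (permutation p = 0.013, adjusted 0.052) and a Spearman rho of -0.73 (permutation p = 0.0092, adjusted 0.037). Within normal protein r with the immune score was -0.62 and within high protein -0.48 (exact permutation p = 0.18 and 0.34), so the relation did not pass within either diet.

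With the fibroblast score in the fit the S100g difference by diet was 0.87 ± 0.42 (SE), and with the immune score in the fit it was 0.42 ± 0.84 (SE), both smaller than 1.62 by more than 1.5 times. The fibroblast and immune scores were themselves 0.14 and 0.29 lower on high protein. With the smooth muscle score it was 1.28 ± 0.74 (SE) and with the epithelium score 1.39 ± 0.78 (SE). These 4 fits were chosen after the values were seen, and their part in the S100g difference was not tested. The epithelium score ran from 11.49 to 12.36 on normal protein and from 11.22 to 12.12 on high protein, with an r of -0.38 with S100g (permutation p = 0.23) and a Spearman rho of -0.35 (permutation p = 0.26). That pooled value joined an r of -0.84 within normal protein and of 0.58 within high protein (exact permutation p = 0.053 and 0.23). Smooth muscle, endothelium, neuron and glia, colonocyte and small-intestine scores had r between -0.47 and 0.43 and Spearman rho between -0.48 and 0.44, with adjusted permutation p-values between 0.31 and 0.82 for r and between 0.31 and 0.85 for rho. Within a diet the r of these 5 scores ran from -0.11 to 0.75 on normal protein and from -0.72 to 0.51 on high protein.

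**Figure D3:**
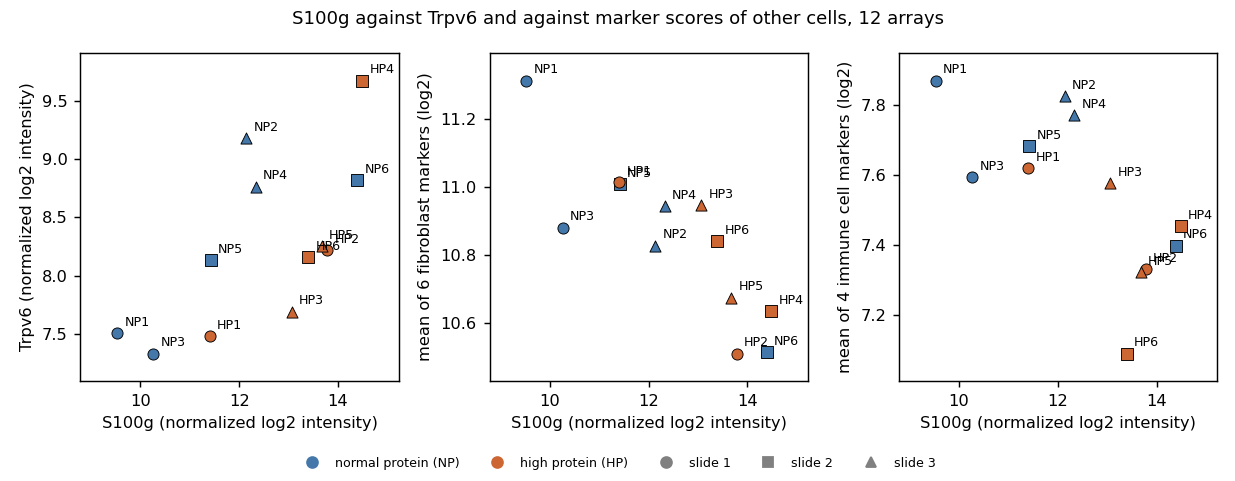
S100g (x axis, normalized log2 intensity) against Trpv6, against the mean of 6 fibroblast markers and against the mean of 4 immune cell markers, with a labelled point for each of the 12 arrays, coloured by diet and shaped by slide. Trpv6 is lowest in NP3 and highest in HP4, and the fibroblast score is 11.31 in NP1, where S100g is lowest, and 10.51 in NP6.

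The wider pathway was followed through 13 lists of calcium, vitamin D and related genes. They held 145 genes besides the members, of which 82 were tested. For diet 0 of the 82 passed the adjusted limma threshold. At an unadjusted p under 0.05, 7 (8.54%) were higher and 5 (6.1%) were lower on high protein, beside 3.72% and 2.98% of all genes. Their median difference was 0.00046, beside 0.0056 for all genes. None of the 82 had a difference as large as that of S100g, which was chosen for its difference, so this order is no support. The largest was that of G0s2, a lipolysis inhibitor, at -1.18 ± 0.62 (SE), which was at 13.19 in NP6 and between 8.25 and 9.73 in the other 11 arrays. Without NP6 it was -0.50.

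In the list of calcium-binding buffers, all 5 tested genes besides S100g lay below 0, opposite in sign to S100g, with a median of -0.19. Of these, Calb2 at -0.06 turned to 0.06 without NP5. Calm2, which encodes calmodulin, was at 12.27 ± 0.24 (SD, n = 6) on normal and 11.91 ± 0.10 (SD, n = 6) on high protein, with a limma adjusted p of 0.68. Its lowest normal-protein array was at 12.08 and its highest high-protein array at 12.07, a gap far smaller than the spread within a diet. Of all genes, 0.0949% were lower and 0.274% higher with no overlap between the diets, and Calm2 is named here for its small p. Sri, which encodes sorcin, differed by -0.25 ± 0.11 (SE). Of 9 other tested members of the S100 family, which share the EF-hand fold of S100g, 3 lay above and 6 below 0 with a median of -0.02. S100a9, a neutrophil protein, differed by 0.51 ± 0.24 (SE), with normal-protein arrays at 5.99 to 6.68, near background. S100a1 differed by -0.33 ± 0.17 (SE), which was -0.19 without NP6. S100b, a glial protein, differed by -0.68 ± 0.69 (SE), which rested on NP6, at 11.72, and was 0.08 without it.

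Genes of calcium entry, extrusion and sensing had small differences. The 5 entry genes tested besides Trpv6 had a median of 0.02, with the T-type channel Cacna1h at 0.20 ± 0.15 (SE), or 0.06 without HP5, and the store-operated channel Orai3 at -0.05 ± 0.08 (SE), or -0.10 without HP1 and -0.02 without NP3. Of the extrusion genes besides Atp2b1, 3 were tested, with Slc24a5 at -0.11, Slc24a3 at -0.29 (-0.14 without NP6, -0.44 without HP3) and the pump Atp2b3 at 0.15 (0.06 without HP3). Casr, the calcium-sensing receptor, was at 0.21 ± 0.29 (SE), and at 0.48 without NP6 and 0.12 without HP2. The claudins Cldn2 and Cldn12 were at 0.08 and 0.03, and turned to -0.06 without NP6 and -0.05 without HP4. Among 7 tested regulators of the channel, Rab11a was at -0.21 (-0.13 without HP3), the ubiquitin ligase Nedd4 at -0.30 and Anxa2, annexin A2, at 0.24. Mitochondrial calcium genes had a median of 0.07 over 6 genes, with Vdac1 at 0.26 (0.13 without NP1), Slc8b1 at 0.10 (0.05 without HP2) and the uniporter pore Mcu at 0.09.

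Of 14 tested genes of the calcium store, 11 lay below 0 in mean, with a median of -0.10 beside 0.0056 for all genes. Some of the 11 lay near 0 and changed sign without a single array, such as Stim1, at -0.05 and at 0.02 without HP3. At an unadjusted p under 0.05, 3 of the 14 were lower (Sln, Pln and Tmco1) and 1 higher (Itpr3), beside 2.98% and 3.72% of all genes. Sln and Pln encode sarcolipin and phospholamban, muscle inhibitors of the store's calcium pump, and differed by -0.52 ± 0.16 (SE) and -0.74 ± 0.28 (SE). On high protein Sln ran from 6.39 to 6.88, close to the level of the Slc8a1 probes. Pln is also a smooth muscle marker, and all 12 smooth muscle markers, Pln among them, lay below 0, with a median of -0.16. The mean of these markers was 0.20 lower on high protein, and its part in the lower Sln and Pln was not tested. That score was 10.62 in HP4 and between 11.27 and 11.90 in the other arrays. Without HP4 the differences of the markers Actg2, Des, Myh11 and Synm turned to 0.10, 0.19, 0.04 and 0.16, while the other markers stayed below 0. Itpr3, an IP3 receptor of epithelial cells, was at 0.29 ± 0.11 (SE). Tmco1, which lies outside the rule for named genes and was named after its value was seen, was at -0.22.

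Vitamin D genes other than the members lay on both sides of 0. At an unadjusted p below 0.05, 1 of 9 partners of VDR, 0 of 5 metabolism genes and 2 of 11 response genes were higher, beside 3.72% of all genes. Of 9 tested partners of VDR, 7 lay above 0 with a median of 0.12, and Med1, a Mediator subunit that binds nuclear receptors, was at 0.16 ± 0.07 (SE). Rxrg, a retinoid X receptor, was at -0.28, and at -0.09 without NP6, and Baz1b was at 0.12. The 5 tested genes of vitamin D metabolism and transport had a median of -0.12, with Cyp3a62 at -0.44 (-0.19 without HP3), Cyp2j4 at -0.30 (-0.49 without NP1, -0.17 without NP6) and the sterol reductase Dhcr7 at -0.12 (-0.04 without HP5, -0.20 without HP6). Cyp27b1, which makes calcitriol, and Cyp2r1 were not tested.

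Of 23 listed response genes of VDR, 14 were tested and 3 of these were members. The other 11 had a median of 0.08, with 8 above 0. Abcc4, an export pump, was at 7.21 ± 0.19 (SD, n = 6) on normal and 7.50 ± 0.04 (SD, n = 6) on high protein, with a limma adjusted p of 0.68. Its highest normal-protein array, at 7.35, lay below its lowest high-protein array, at 7.45. Of all genes, 0.274% were likewise higher with no overlap between the diets, and Abcc4 is named here for its small p. Trpm6, the magnesium channel of the colon, was at 8.34 ± 0.58 (SD, n = 6) on normal and 9.14 ± 0.54 (SD, n = 6) on high protein, with overlap, since its ranges were 7.92 to 9.49 and 8.18 to 9.64. In the list of phosphate and magnesium transport, which also holds Trpm6, 6 of 8 genes lay above 0 with a median of 0.15. The phosphate carrier Slc20a1 was at 0.85 ± 0.35 (SE) and Cnnm3, of a magnesium transporter family, at 0.24 ± 0.08 (SE). In the list of steroid and related nuclear receptors, Nr1i2, the pregnane X receptor, was at 0.37 ± 0.12 (SE). Thra, a thyroid hormone receptor, was at -0.18 and Nr3c2, the aldosterone receptor, at 0.11 (0.05 without HP2, 0.20 without HP3). No adjusted limma p for diet among these genes lay below 0.68.

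**Figure D4:**
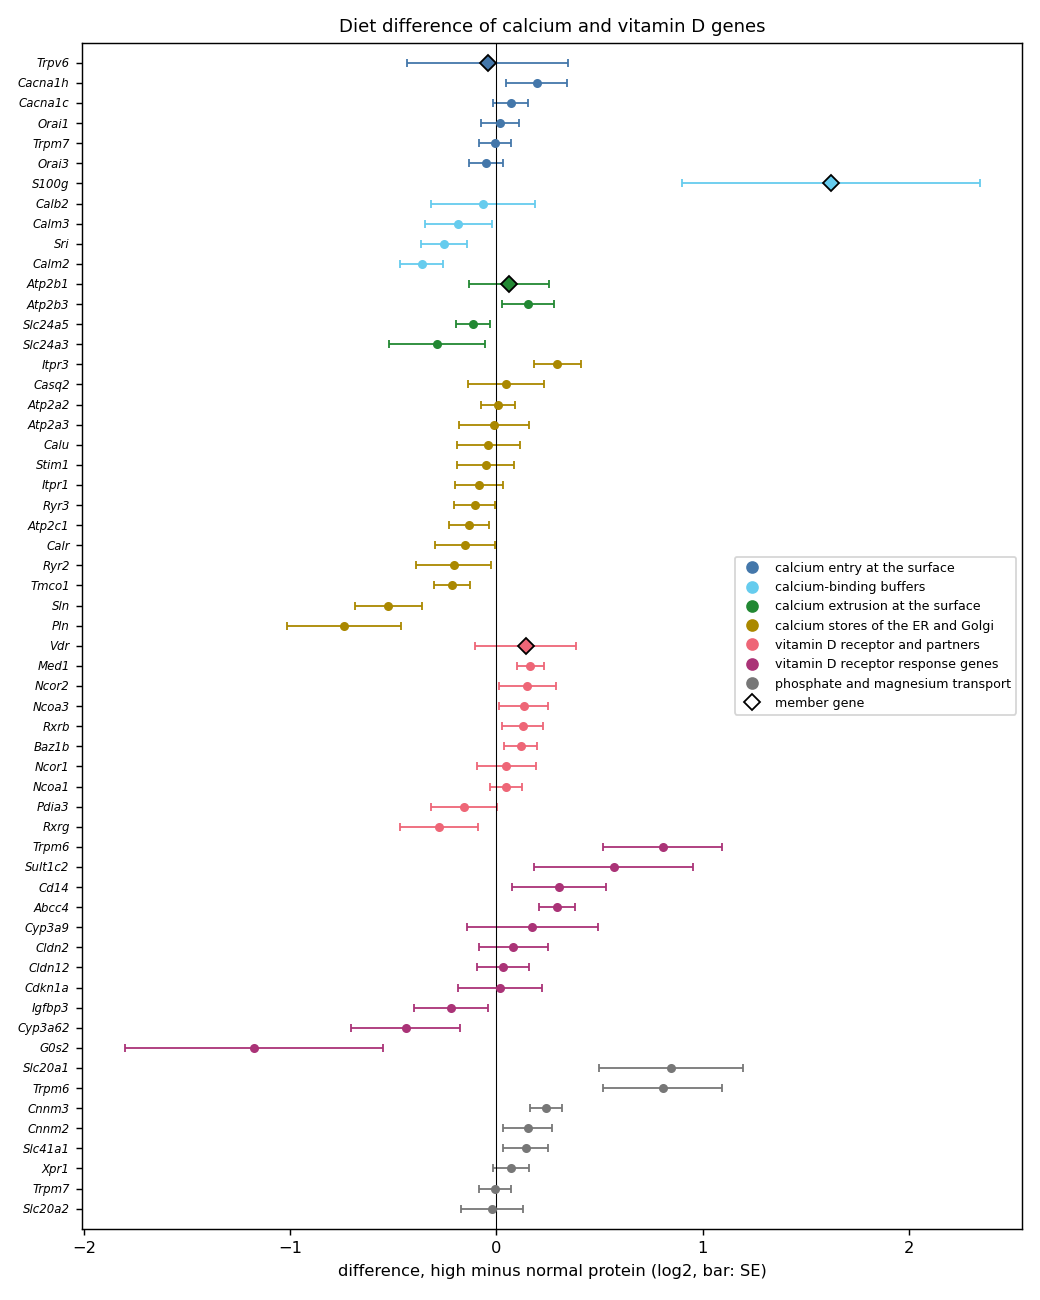
Difference between diet means (high minus normal protein, log2, with SE bars) for genes of 7 calcium and vitamin D lists that were tested, with members as diamonds. S100g lies at 1.62, the other members lie between -0.04 and 0.14, and G0s2 is the lowest at -1.18.

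The slope on the Hox score, with diet in the fit, passed the limma threshold for 6 (7.32%) positive and 1 (1.22%) negative of the 82 other pathway genes, beside 3.65% and 2.84% of all genes. Casq2, a calcium store protein of muscle, rose with the score by 0.07 ± 0.01 (SE) per unit (limma adjusted p = 0.0030). It was dim, at 6.51 to 7.10 on normal and 6.22 to 7.27 on high protein, so its lower arrays were near background. Slc20a1 rose by 0.13 ± 0.03 (SE) (limma adjusted p = 0.010). The EF-hand genes S100a13 and S100a16 rose by 0.08 and 0.06 (limma adjusted p = 0.014 and 0.017). Cyp3a9 and the coactivator Ncoa3 rose by 0.10 and 0.04, and Slc24a3, a potassium-dependent sodium-calcium exchanger, fell by 0.08 per unit (limma adjusted p = 0.049, 0.050 and 0.050). S100g was not among the genes that passed.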

How the data were processed

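Gene expression was measured on 12 single-colour arrays, 6 for each diet. The deposited scanner files give, for each spot, its mean intensity and the median of its local background, both linear, measured with GenePix Pro 6.1.0.4 and not normalized, per the file headers. They also give the percent of saturated pixels and a spot flag, per the file headers. The deposited series value table holds log2 values (RMA is named in the submitters' processing notes). Its centring is not given in the sources used here, and its column medians lay between 4.36 and 4.45. Its rows matched the scanner values at r = 0.80 to 0.88 with the row names moved by 1 row and at 0.08 to 0.10 as deposited by the authors, so it was used only as moved.

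Background was corrected with normexp (offset 50), arrays were quantile normalized on the log2 scale, control spots were left out, and spots of a probe were averaged. The offset shrinks the fold of dim genes, and a probe that passed the filter could still be near background on some arrays. Probes had to have 0.5 or more of their spots flagged good on 6 or more arrays, and 13204 did. The brightest tested probe of a gene was used, which gave 9481 named genes, and 2477 tested probes without a gene name were left out. Names came from RefSeq accessions (GRCr8 table) for 18809 of 24531 probes with an accession, otherwise from the array.

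All genes were fitted with limma 3.58.1 in R 4.3.3 for diet, for diet with the Hox score, and for both with a term for their interaction. The p-values were adjusted by Benjamini-Hochberg (threshold 0.05). Permutation tests are two-sided, with 100000 resamples over 12 arrays and all 720 orders within a diet, where 0.0028 is the smallest p. On simulated data that kept the noise that genes of an array share, the fits recovered the known changes, but in some draws the share of false calls was well over the threshold, for diet and for the slope. The number of arrays limits the precision. The members and lists were chosen with earlier results of these data known. Named besides the members were up to 3 genes of each list with the smallest p for diet and for the slope, and the 6 genes most like and 3 most unlike S100g. Alternatives covered scaling, background, filter, probe choice, slide, replicate number, Hox score and single arrays. Single arrays were also left out for each list gene, a choice made after seeing the data. Values of some list genes are not reported here, and the plot of pathway differences leaves them out.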

Additional observations from a re-analysis of the deposited data

Results flagged for a closer look

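Of 48 groups of 6 arrays checked for an array far from the other 5, 9 had one, where chance flags about 1 in 20 groups. Trpv6 in HP4 was at 9.67, with the nearest high-protein array at 8.25. The smooth muscle marker score was also far from the rest in HP4, at 10.62 with the nearest at 11.27. In NP6 Hoxb6 was at 10.95 and Hoxb7 at 10.29, with the nearest normal-protein arrays at 7.33 and 7.04. The endothelium marker score was at 9.79 in NP6 and at 9.20 in HP3, with the nearest arrays at 8.74 and 8.76. Of the genes most like S100g, Shtn1 was at 6.96 in NP6, and Pus7 and Nbn were at 7.09 and 7.93 in HP1, below the other high-protein arrays. S100g itself had no such array in either diet.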

How the results depend on the processing

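The S100g difference by diet lay above 0 in all 29 alternatives run. It ran from 0.42 with the immune score in the fit, which was added after seeing the data, to 2.70 within slide 1. With the Hox score in the fit it lay above 0 in all 27, from 1.21 to 3.0. Leaving out single arrays gave 1.19 to 2.16 and 1.37 to 2.20. All alternatives use the same arrays, in which S100g was chosen for this difference, so the shared sign is no support for it. The S100g correlation with the Hox score was -0.49 to -0.25 without single arrays. Of its 24 alternatives, only minus Hoxb6 alone (-0.59) had an unadjusted permutation p under 0.05, and no adjusted p was computed for it. Genes called by the Hox score numbered 615, against 356 with slide as a block, 252 with the replicate block, 406 with Hoxb13 alone, 19, 0 and 131 within slides 1, 2 and 3, and 329 to 610 without single arrays. Genes called by diet numbered 0 except for 1 within slide 3; with the Hox score in the fit they numbered 3 within slide 1, 2 within slide 3, and 0 to 1 without single arrays. Fits within a slide have 4 arrays. The Trpv6 slope turned to 0.078 within slide 1 and 0.059 within slide 3, the S100g slope to 0.034 within slide 3, and the Vdr slope to -0.31 within slide 1; without single arrays the Vdr slope ran from -0.00058 to 0.063. With the replicate block the S100g slope was -0.22 (limma adjusted p = 0.041), against a range of adjusted p from 0.041 to 0.97 over its alternatives. Same-numbered arrays of the 2 diets, for replicates 1 to 6, correlated at 0.38, 0.34, -0.09, 0.25, -0.04 and -0.14. The labels give a replicate number and no pairing, and these values do not settle whether the arrays are paired. The replicate block changed no count by diet, while calls by the Hox score numbered 252 with it against 615 without it. The cause of these changes was not tested. The Cyp24a1 and Slc8a1 probes were not well above background, so signal limits what can be said of them.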
